A study of Canis lupus familiaris with 2 samples.

Results

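Long unmethylated valleys of the dog genome were followed by whole-genome bisulfite sequencing of MDCK, a dog kidney line of epithelial cells. A valley was a run of at least 3 adjacent windows of 1000 bp on the 38 autosomes, each with a methylation level under 10% in the control library. A window needed at least 5 CpG sites that each library covered with 5 calls or more, and its level was the methylated calls over all calls, summed over sites. A run ended at a window of 10% or more, or at a window that could not be tested. The rule gave 844 valleys, which held 2864 of 1374041 tested windows, or 0.208%. Because the rule used the control levels, these levels describe how the valleys were chosen, and the TGF-beta levels are the readout that took no part in it.

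The study had 1 library per group. The TGF-beta culture had received TGF-beta at 5 ng/ml for 30 days and carries the label mesenchymal, and the control culture was kept untreated for the same 30 days and carries the label epithelial. Both groups are the MDCK line. Without replicates no difference below has a replicate check, and tests on calls compare 2 libraries, not the conditions. Ranges in parentheses after a level are exact binomial confidence intervals at 95%, which reflect only counting error. They treat every call as independent and can be too narrow, since the strands of a library differed by more than binomial counting gives.

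Methylation of cytosine in CpG pairs is the default state of most mammalian DNA, and stretches that escape it are mostly short CpG islands at gene starts. Unmethylated stretches of several kilobases are known as DNA methylation valleys or canyons. In human and mouse cells they are known to lie over genes of developmental regulators, where Polycomb proteins or active transcription mark the chromatin, and to keep their low methylation across many tissues. The cytokine TGF-beta can turn epithelial cells mesenchymal when given for long.

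Most valleys were only as long as the rule required. Some ended at an untested window and not at a methylated one: beside the 1688 end windows, 1390 windows just outside were tested. There were 638 valleys of 3 kb, 75.6% of all, 141 of 4 kb and 65 of 5 kb or more, of which 8 reached 8 kb and the longest 15 kb. They were rich in CpG, with a median of 60.1 listed sites per kb (quartiles 43.6 and 75.7), against a median of 10 per window over all tested windows. The windows of valleys were 7.16% of the 39980 windows under 10% in the control, and these in turn were 2.91% of all tested windows. The 3 valleys nearest to the threshold had a highest window of 7.67%, 12.4% and 41.2% in the TGF-beta library and of 9.99%, 9.97% and 9.95% in the control. The 3 nearest runs outside it had a highest window of 22.7%, 13.7% and 15.3% in the TGF-beta library and of 10% each in the control.

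The valleys lay in methylated surroundings. Over 50 kb to each side, without the valley itself, the median level was 76.9% in the TGF-beta library and 77.3% in the control, and around 83 valleys it was under 50% in the control. Each autosome held between 4 and 54 valleys. Chromosome 27 had the highest number for its size, 35 valleys or 1.31 per 1000 tested windows, and chromosome 29 the lowest, 4 valleys or 0.189 per 1000. The richest stretch of 1 Mb, on chromosome 35 from 24000001, held 8 valleys, and the next, on chromosome 27 from 1000001, held 7. Neighbouring valleys were usually far apart, with a median gap of 1355 kb, but 37 valleys fell into 18 groups with gaps of at most 10 kb. In some groups, such as that on chromosome 24 from 23792001, the gap held no tested window, so the valleys may be parts of a longer one.

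Valleys stayed low in the TGF-beta library. The median valley level was 2.24% there (quartiles 1.08 and 4.28, highest 21.3) and 1.62% in the control (quartiles 0.781 and 3.09, highest 9.09). Over all tested windows the medians were 70.5% and 68.9%. In 568 valleys, 67.3%, every window remained under 10% in the TGF-beta library, and 358 valleys were under 2% in both libraries. Only 2 valleys reached 20% as a whole in the TGF-beta library.

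By summed calls, the sign of the median difference depended on the library that chose the valleys, and by averaged site levels it was positive in both choices. For the valleys chosen in the control, 626 were higher in the TGF-beta library and 218 lower by summed calls, with a median difference of 0.521 points. When site levels were averaged instead, the median difference was 0.706 points and 736 valleys were higher. Over all tested windows these medians were 0.459 points by summed calls and 0.206 points by averaged sites, and over all windows under 10% in the control the median was 0.846 points by summed calls. Taken per autosome, the median difference was positive on 37 of 38, and lay between -0.0252 points on chromosome 36 and 1.59 points on chromosome 16. The rule itself favours this direction, because it admits a valley by its low control calls. Valleys chosen again on 1 strand of the control and read on the other strand, which the choice did not use, numbered 1001. On that strand 642 had a higher level in the TGF-beta library and 359 a lower one, and the median difference was 0.371 points. Among 833 valleys chosen in the TGF-beta library instead, 412 were higher in the TGF-beta library and 421 lower by summed calls, with a median difference of -0.0173 points, and the median by averaged sites was 0.378 points.

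The libraries also differed in depth and in their background. The median valley had 36.1 calls per site in the TGF-beta library and 17.4 in the control, whereas the median tested window had 38.6 and 26.6. Mitochondrial DNA, whose level caps how often conversion can have failed, read 0.329% (0.325 to 0.334) in the TGF-beta library and 0.211% (0.205 to 0.217) in the control. Of the valleys, 24 lay at or under that level in the TGF-beta library and 32 in the control. The part of conversion and of depth in the small differences was not tested.

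**Figure D1:**
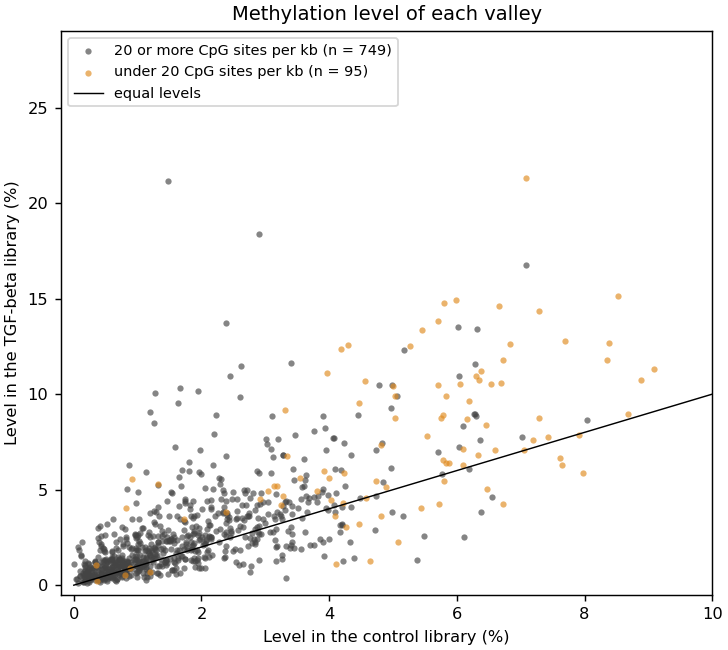
Methylation level of each of the 844 valleys in the TGF-beta library (vertical, %) against the control library (horizontal, %), 1 point per valley, in orange where it held under 20 listed CpG sites per kb and in grey otherwise, with the line of equal levels. Most points sit near the lower left corner, around the medians of 2.24% and 1.62%, and the few far above the line are the gaining valleys.

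Larger differences were few. By at least 5 points, 45 valleys (5.33%) were higher in the TGF-beta library and 0 lower. Over all blocks of 3 adjacent tested windows, 16.7% were higher and 12.8% lower by that size. By at least 10 points, 4 valleys (0.474%) were higher and 0 lower, where 5.39% of all blocks were higher and 3.64% lower. A valley under 10% in the control cannot be lower by 10 points and has little room to be lower by 5, so these counts of 0 restate the rule. By averaged site levels 8 of the 844 were higher by 10 points, and with windows shifted by 500 bp 9 were. On both strands at once, 22 valleys were higher by at least 5 points on each strand, and none was higher by 5 points on one strand and lower by 5 on the other. The rule leaves little room for a strand to be lower by 5, so that count says little on whether the strands agree. Among the 1001 valleys chosen on 1 control strand, the strand not used was higher by at least 5 points in 83 and lower in 30, and by at least 10 points higher in 23 and lower in 8.

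Called windows lay mostly at the ends of valleys. A window was called at a Benjamini-Hochberg adjusted p under 0.05 in Fisher's exact test, over all tested windows, with a difference of at least 20 points. Of the 2864 valley windows 33 were called higher (1.15%), beside a background over all windows of 2.26% higher and 1.43% lower. A window under 10% in the control cannot be called lower by 20 points, so the valleys give no count in that direction. In the 1001 valleys chosen on 1 control strand, 64 windows were called higher and 10 lower on the strand not used for the choice. The background above is for calls summed over strands, so these counts have no share over all windows beside them. The 33 windows lay in 30 valleys, and 27 of them were the first or last window of their valley. When the variance was scaled by the spread between strands within each library, 9 windows were called higher, and with at least 10 sites per window 18. The two-sided test treats every call as an independent molecule.

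Of all windows under 10% in the control, 27.5% were at 10% or more in the TGF-beta library. In valleys this held for 352 windows, 12.3%. At least 1 such window occurred in 276 valleys, 55 valleys had a window at 20% or more and 2 had one at 50% or more. By at least 10 points, 112 valley windows (3.91%) were higher, where 10.3% of all tested windows were higher and 8.23% lower. The rule leaves no valley window that could be lower by that size.

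CpG-poor valleys had the highest levels. The 95 valleys under 20 listed sites per kb had a median level of 7.08% in the TGF-beta library and 5.53% in the control, so they were lowly methylated rather than unmethylated. The level around them was also low, at a median of 39.3% in the TGF-beta library and 38.9% in the control. Of them, 43 (45.3%) kept every window under 10% and 19 (20.0%) were higher by at least 5 points. A called window was held by 4 of the 95 (4.21%), beside 30 of all 844 valleys. Among the 170 valleys of 80 or more sites per kb the medians were 1.48% and 0.939%, 145 (85.3%) kept every window under 10% and 2 (1.18%) held a called window.

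Valleys of 20 to 40 sites per kb most often held a called window, 13 of 87 (14.9%). Their median was 3.24% in the TGF-beta library and 1.76% in the control, and the level around them was 78.5% and 78.1%. In the next classes, 4 of 233 valleys of 40 to 60 sites per kb and 7 of 259 of 60 to 80 held a called window. These shares come from counts on single libraries and no test sets the classes apart. Calls per site also moved with density: the medians were 38.7 in the TGF-beta library and 20.3 in the control at 20 to 40 sites per kb, and 34.2 and 14.9 at 80 or more. The part of depth in these shares was not tested.

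**Figure D2:**
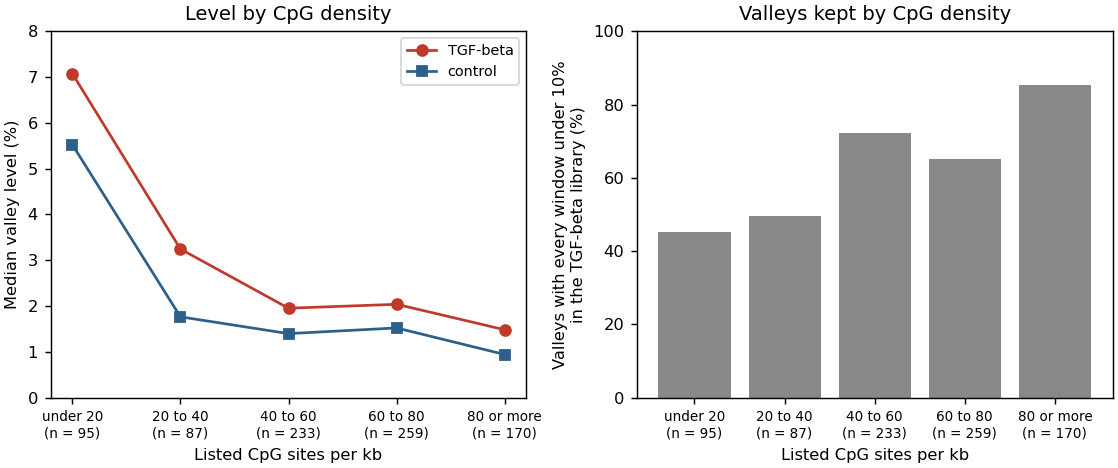
Left, median valley level (%) in the TGF-beta and control libraries by class of listed CpG sites per kb; right, the share of valleys (%) whose every window was under 10% in the TGF-beta library. The median level is highest in the class under 20 sites per kb, at 7.08% and 5.53%, and the share kept is 45.3% there and 85.3% at 80 or more sites per kb.

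Length went with a lower level but not with a higher share kept. Valleys of 5 kb or more had a median of 1.35% in the TGF-beta library and 1.08% in the control, against 2.40% and 1.84% for those of 3 kb. Of the longer ones 34 of 65 (52.3%) kept every window under 10%, and of those of 3 kb 450 of 638 (70.5%). A longer valley has more windows that can cross the threshold, and the part of this in the shares was not tested. Of the valleys of 5 kb or more, 1 was higher by at least 5 points.

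The longest valley ran over 15 kb on chromosome 14, from 40334001 to 40349000 in the canFam3 build. Its level was 2.57% (2.44 to 2.71) in the TGF-beta library over 51556 calls and 1.39% (1.23 to 1.57) in the control over 19001 calls, at 849 sites. None of its 15 windows was called. The highest in the TGF-beta library, from 40336001, was at 13.7% over 1499 calls, against 4.21% in the control, and 7 other windows were under 1% in both libraries.

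Its sides differed more than its floor. The 2 windows just before it were called higher. The one from 40332001 was at 64.8% (63.0 to 66.6) in the TGF-beta library and 41.9% in the control, and the one from 40333001 at 33.5% (32.2 to 34.8) and 12.3%. Behind it, the window from 40349001 was at 63.2% (61.3 to 65.1) in the TGF-beta library and 51.1% in the control, which was not past 20 points. A second valley of 3 kb lay 7 kb before it, and windows between both reached 80.8% in the TGF-beta library and 80.1% in the control.

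The second longest valley, 12 kb from 1261001 to 1273000 on chromosome 27, had a level of 0.844% (0.715 to 0.990) in the TGF-beta library and 0.555% (0.420 to 0.721) in the control. A valley of 6 kb followed 3 kb after it, and together they put 18 kb of valley into 21 kb. Its highest window in the TGF-beta library was at 5.32% and its highest in the control at 4.75%. A valley of 9 kb on chromosome 6, from 12514001 to 12523000 and with 86.3 sites per kb, had a level of 0.786% (0.669 to 0.918) in the TGF-beta library and 0.390% (0.283 to 0.523) in the control. One of its windows, from 12519001, had no methylated call in either library, which allows up to 0.250% in the TGF-beta library and 0.472% in the control. Its last window was the highest, at 5.56% in the TGF-beta library and 2.35% in the control.

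The other valley of 9 kb, on chromosome 9 from 34336001 to 34345000, differed in make-up, with 8.44 sites per kb in surroundings at 75.8% in the TGF-beta library and 78.1% in the control. Its level was 1.06% (0.711 to 1.52) in the TGF-beta library and 0.351% (0.161 to 0.666) in the control, over 2737 and 2563 calls. Its first window was its highest, at 12.1% (6.42 to 20.2) in the TGF-beta library over 99 calls and 1.23% in the control. It was an unmethylated CpG-poor stretch within methylated DNA. The window after it, from 34345001, was called higher, at 54.5% (49.5 to 59.5) in the TGF-beta library and 27.5% in the control. On chromosome 18, a valley of 8 kb from 48509001 was at 1.83% (1.64 to 2.02) in the TGF-beta library and 1.01% (0.812 to 1.24) in the control. A further valley of 8 kb, on chromosome 7 from 70037001, was at 0.592% (0.451 to 0.763) in the TGF-beta library and 0.543% (0.374 to 0.761) in the control. Its highest window reached 17.0% in the TGF-beta library and 8.39% in the control, so a low average did not mean that each window stayed under 10%.

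The 2 valleys with the largest gain lay close together on chromosome 27. The one with the larger gain, from 2825001 to 2828000, was at 21.1% (19.9 to 22.5) in the TGF-beta library over 3875 calls and 1.48% (1.02 to 2.09) in the control over 2158 calls. It was higher by 19.7 points by summed calls, by 14.7 points when site levels were averaged, and by 14.5 and 23.8 points on its strands. The gain was steepest at its start: its windows were at 47.6%, 13.5% and 3.13% in the TGF-beta library and at 3.07%, 0% and 0.861% in the control. Only the first of these windows was called, with a difference of 44.6 points. The valley was admitted by its low control calls and named for its gain, so that call is no separate support for the gain.

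Of 112 sites of that valley covered by 10 or more calls in each library, 32 were at 20% or more in the TGF-beta library and 2 in the control, and 15 were at 50% or more in the TGF-beta library. The other valley, from 2786001 to 2789000, was at 18.4% (16.5 to 20.4) in the TGF-beta library and 2.91% (1.94 to 4.17) in the control. Its windows were at 12.5%, 36.9% and 8.49% in the TGF-beta library and at 0.821%, 8.80% and 1.92% in the control, so here the middle window was highest. The level around the valley from 2825001 was 77.5% in the TGF-beta library and 73.1% in the control, and that around the valley from 2786001 was 79.2% and 75.6%. The gain was not confined to these valleys. Some windows between them were called higher too, at 33.0% in the TGF-beta library and 2.49% in the control, and at 53.8% and 22.4%. The other tested windows between them were not called.

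The other gains had different shapes. The valley on chromosome 9 from 24803001 to 24806000 had a level of 13.7% (12.9 to 14.5) in the TGF-beta library and 2.38% (1.93 to 2.91) in the control, and its windows were evenly raised, at 13.5%, 13.0% and 15.5% in the TGF-beta library and 1.80%, 2.18% and 3.84% in the control. None of them passed 20 points, but the window after the valley did, at 44.2% (40.7 to 47.8) in the TGF-beta library and 15.6% in the control. The one on chromosome 23 from 39470001 to 39474000 had 16.8% (16.0 to 17.5) in the TGF-beta library and 7.08% (6.34 to 7.89) in the control, and its window from 39472001 differed most, at 27.7% in the TGF-beta library and 9.42% in the control. A CpG-poor valley of 22 kept sites, on chromosome 6 from 19852001 to 19855000, was at 21.3% over 539 calls in the TGF-beta library and 7.08% over 480 calls in the control, in surroundings at 34.1% and 31.6%.

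The rule leaves little room for lower levels in the TGF-beta library. The largest difference of this sign by summed calls, on chromosome 8 from 9913001 to 9916000, was 1.31% (1.07 to 1.59) in the TGF-beta library and 5.38% (4.66 to 6.18) in the control. By the mean of site levels the same valley was at 2.47% and 2.06%, a difference of opposite sign. On chromosome 20, the valley from 6831001 to 6834000 read 1.27% (0.833 to 1.86) in the TGF-beta library and 4.64% (3.69 to 5.75) in the control, and was lower by the mean of site levels too, at 2.82% and 5.16%.

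**Figure D3:**
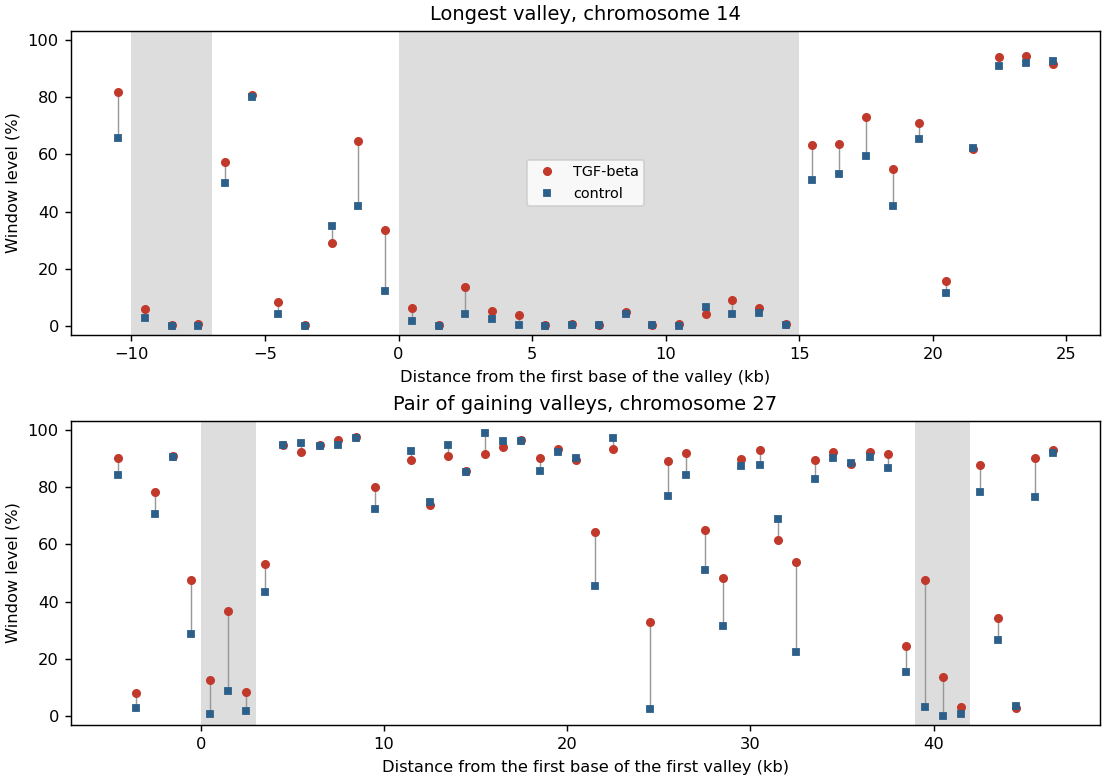
Level of each tested window (%) in the TGF-beta and control libraries around the longest valley on chromosome 14 and around the pair of gaining valleys on chromosome 27, by distance from the first base of the valley (kb), with valley windows shaded. In the longest valley the floor is low in both libraries. The windows just before that valley are higher in the TGF-beta library, at 64.8% and 33.5% against 41.9% and 12.3% in the control. In the pair, windows inside the valleys are higher in the TGF-beta library, up to 47.6% against 3.07%. Some windows between the pair are higher too, at 33.0% against 2.49% and 53.8% against 22.4%, and others there are lower.

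The sides of the valleys were steep. For valleys of at least 20 sites per kb, the median of end windows was 2.41% in the TGF-beta library and 1.81% in the control and that of inner windows 0.495% and 0.249%. The first window outside had a median of 67.8% in the TGF-beta library and 63.6% in the control, and the second 91.6% and 90.0%. From there the medians stayed above 90% in both libraries up to 10 kb outside. In the 95 CpG-poor valleys the median side was lower: 2 kb outside, the medians were 37.1% in the TGF-beta library and 39.1% in the control.

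The first window outside was the most often called of the 10. Of the 1390 windows tested there, 87 (6.26%) were called higher and 19 (1.37%) were called lower, and its median difference was 1.96 points. In the second window 31 of 1298 (2.39%) were called higher and 8 lower. Both shares stand beside 2.26% higher and 1.43% lower over all tested windows. Over all valleys, the median in the control was 59.4% in the first window outside and 88.6% in the second. In the windows further out it lay between 89.2% and 90.8%. At such control levels a window has too little room for the gain that a call needs. Most windows from the second outwards therefore could not be called higher, and the part of this limit in the shares was not tested. Inside, 27 of 1688 end windows (1.60%) and 6 of 1050 windows second from the end (0.571%) were called higher, and of 126 windows further in 0 were.

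**Figure D4:**
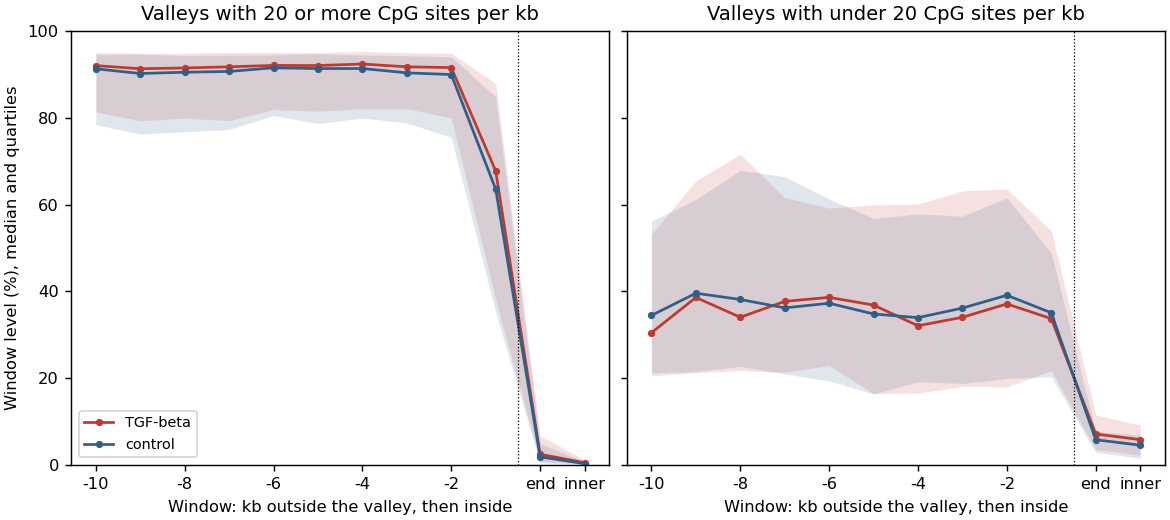
Window level (%) from 10 kb outside a valley to its end window and inner windows, as median (line) and quartiles (band) in the TGF-beta and control libraries, for valleys of at least 20 and of under 20 listed CpG sites per kb. In CpG-rich valleys the median goes past 90% within 2 kb of the valley in the TGF-beta library and in the control, and in CpG-poor ones it stays under 40% throughout in both.

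At the resolution of sites, valleys were slightly narrower in the TGF-beta library. Going outwards from the middle of a valley, its edge was set in each library at the first of 3 kept sites in a row at 50% or more. The edges were used in 827 valleys, where in each library they lay at most 20 kb further apart than the valley is long. The median distance between the edges was 4.13 kb in the TGF-beta library and 4.38 kb in the control. Of 1654 edges, 891 (53.9%) were at the same site in both libraries, 536 (32.4%) lay further inside the valley in the TGF-beta library and 227 (13.7%) further outside.

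Shifts were short, with a median of 204 bp among the edges that differed. By at least 500 bp, 150 edges lay further inside and 48 further outside in the TGF-beta library. For valleys chosen on the TGF-beta library in place of the control, 473 edges lay further inside and 259 further outside in the TGF-beta library, and by at least 500 bp 130 and 76 did. The choice of library bears on the width, and its part in these counts was not tested. The control had fewer calls per site in valleys, and the part of depth in the edges was not tested either. The valley that was narrower by the most in the TGF-beta library was the CpG-poor one on chromosome 6 from 4048001, at 13097 bp in the TGF-beta library and 21379 bp in the control, and nearly all of that lay at one edge. It held 6.67 listed sites per kb, so its edge positions are coarse.

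**Figure D5:**
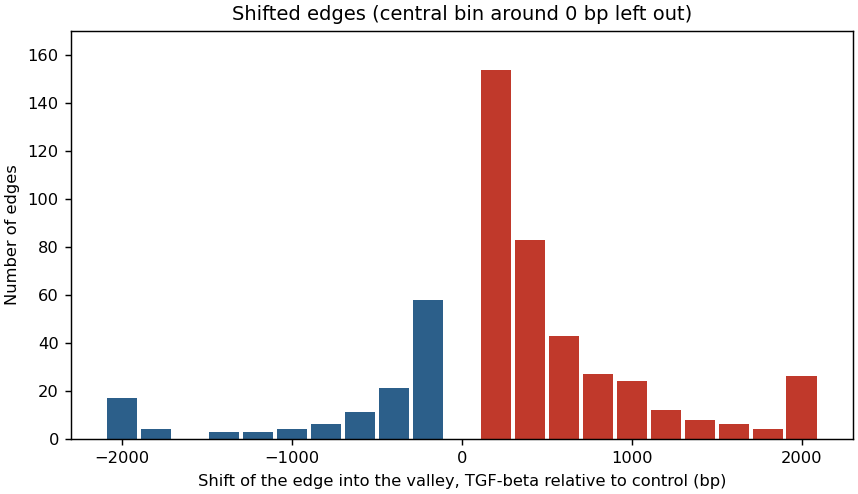
Number of valley edges by their shift into the valley in the TGF-beta library relative to the control (bp, bins of 200 bp, shifts past 2000 bp gathered in the outermost bins), for 827 valleys. The central bin of 1140 edges is left out. More edges lie to the right of 0 (further inside) than to the left (further outside) in the TGF-beta library, 536 against 227 with those of the central bin counted.

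Within valleys most single sites carried no methylated call. Of 108625 valley sites covered by 10 or more calls in each library, 74.7% were at exactly 0% in the TGF-beta library and 87.6% in the control. The median depth was 39 calls in the TGF-beta library and 18 in the control. After each site was thinned at random to the lower of its call counts, 83.1% in the TGF-beta library and 87.9% in the control were at 0%. At 20% or more there were then 3.79% and 1.82%, and at 50% or more 1.12% and 0.500%.

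Sites crossed from low to high in a minority of valleys. Of the 108625 sites, without drawing calls, 183 in 97 of the 844 valleys were at 50% or more in the TGF-beta library and under 10% in the control. The reverse held for 4 sites in 3 valleys. At equal calls these counts were 223 in 128 valleys and 6 in 6. The choice by low control levels keeps the reverse count small, and no share over sites outside valleys is given. In valleys chosen on the TGF-beta library, without drawing calls, the counts were 48 sites in 41 valleys and 20 sites in 15 valleys. At equal calls they were 70 in 63 and 19 in 16. There, at equal calls, 2.86% of sites were at 20% or more in the TGF-beta library and 2.11% in the control.

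Valleys were set beside shorter stretches found by the same rule, 3564 runs of 2 windows and 29988 runs of 1 window. Runs of 1 window were mostly CpG-poor, at a median of 7 listed sites, and 80.6% of them had fewer than 20. Their median was 6.63% in the TGF-beta library and 5.81% in the control, and 2.48% of their windows were called higher. At 40 or more sites per kb the median differences were 0.425 points for 662 valleys, 0.317 for 2171 runs of 2 and 0.350 for 4877 runs of 1. Of their windows, 91.0%, 92.1% and 90.4% stayed under 10% in the TGF-beta library, and 0.575%, 0.622% and 0.328% were called higher. The whole stretch was higher by 10 points or more in 0.302% of such valleys, 1.15% of runs of 2 and 2.09% of runs of 1. A longer stretch averages over more calls, the part of which was not tested, and no test sets the kinds apart.

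The reverse choice, valleys under 10% in each window of the TGF-beta library, gave 833 valleys. Of the valleys chosen in the control, 639 shared a window with one of these and 205 shared none. The 833 had a median of 1.92% in the TGF-beta library and 1.78% in the control, but the median difference within valleys was -0.0173 points. Of them 605 (72.6%) kept every window under 10% in the control. Called windows were fewer in this direction: 7 of their 2771 windows (0.253%) were called lower in the TGF-beta library, against 33 of 2864 called higher among the valleys chosen in the control. Over all tested windows, 1.43% were called lower and 2.26% higher. The TGF-beta library, which made the reverse choice, had more calls per site in valleys, and the part of depth in these counts was not tested. By at least 10 points, 4 valleys differed in each choice, and by at least 5 points 33 were lower in the TGF-beta library in the reverse choice. The 2 choices share both libraries and most windows, 2138 of them, so they are not independent. In these 2138 windows the median was 0.930% in the TGF-beta library and 0.588% in the control.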

How the data were processed

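The authors deposited, per library, counts of methylated and unmethylated calls for each CpG cytosine, without a header. The submitters' processing notes list Bismark, Bowtie 0.12.8 and canFam3, but the aligner is SOAPaligner2 per the labels' extraction protocol. How duplicates and overlapping mates were handled is not given in the sources used here. Which column is methylated was read from mitochondrial DNA. Lines that name no chromosome held 6 calls in the TGF-beta library and 12 in the control and were left out, as were 0.00656% of calls, at cytosines with no clear partner.

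Cytosines at adjacent positions were summed into 25888236 sites. Tested windows held 839568874 calls in the TGF-beta library and 503494893 in the control. Fisher's exact test (two-sided, Benjamini-Hochberg adjusted over 1374041 windows) compared the calls of the libraries per window. The test was tried on simulated data. The members and the rules were chosen with earlier results of these data known, and edge positions, site shares and groups of valleys were added without a plan. Named valleys are the 5 longest, the 5 longest under 2% in both libraries, and the 5 largest gains among valleys with 200 or more calls per library and a gain of 5 points on each strand; the largest falls and narrowed valleys were picked after their values were seen. Alternatives changed call and site minimums, the averaging, the threshold, the run length, the window grid, the strand or library of choice, depth and the test. Genes and sequences are not analysed here, since no canFam3 genome or annotation was used. The software was Python 3.11.15, scipy 1.17.1, numpy 2.4.6, numba 0.67.0, pandas 2.3.3 and matplotlib 3.10.9.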

Additional observations from a re-analysis of the deposited data

How the results depend on the processing

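Of 68 recomputed values, 45 stayed close to those reported: within 1.5 times for counts, and within the exact interval of a valley of median level and calls (1.88 to 2.66) for the median. The 45 include counts of 0 set against 0, for valleys lower by 10 points and for windows called lower. The rule leaves little or no room for such differences, so these counts do not show stability. The number of valleys was 505 at a threshold of 5%, 1425 at 15% and 65 for runs of 5 or more windows, and 671 to 1001 otherwise. The median level in the TGF-beta library was 1.22% at 5%, 4.05% at 15%, 1.35% for runs of 5 or more, 2.72% with members chosen on 1 strand and read on the other, and the median in the control was 1.78% in the reverse choice. Valleys that kept every window under 10% numbered 34 for runs of 5 or more. Those higher by at least 10 points numbered 9 by the mean of site levels, 2 at 5%, 30 at 15%, 0 for runs of 5 or more, 9 with windows shifted by 500 bp and 23 on the other strand, where 8 were lower and 10 windows were called lower. Windows called higher numbered 11 at 5%, 91 at 15%, 2 for runs of 5 or more, 64 on the other strand, 18 with at least 10 sites and 9 in the score test, whose variance was scaled by the spread between strands, 10.2 times the binomial one in the TGF-beta library and 5.70 times in the control. The causes were not tested. Of the alternatives on depth, a minimum of 10 calls per site gave 28 windows called higher and leaving out windows of high depth gave 33. No paired analysis was possible because each group has 1 library.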

Other observations

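Chromosome X, which the rule leaves out, held 18 runs of the same kind among 72459 tested windows, 0.248 per 1000. They were CpG-poor, at a median of 6.67 listed sites per kb. Their median level was 8.22% in the TGF-beta library and 5.33% in the control, 15 of 18 were higher in the TGF-beta library, and 5 kept every window under 10% there. Over all tested windows of chromosome X the medians were 53.1% and 52.8%. Chosen on the TGF-beta library, 12 such runs were found.

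Some runs met the rule in the TGF-beta library and not in the control, and those named here were picked after their values were seen. On chromosome 9 from 58337001 to 58340000, a run of 3 windows with 11 listed sites per kb was at 0.586% (0.268 to 1.11) in the TGF-beta library over 1535 calls and 24.0% in the control over 907 calls. By the mean of site levels it was at 0.559% and 23.1%. A run on chromosome 32, with its start at 38788001, had 7.60% (5.46 to 10.2) in the TGF-beta library and 24.7% (21.0 to 28.7) in the control. For a run on chromosome 11 from 34813001 to 34816000 the averages went opposite ways, at 6.43% and 18.7% by summed calls but 10.7% and 7.48% by the mean of site levels.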
